A study of Mus musculus with 6 samples.

Results

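The proteasome is the large protease that degrades ubiquitin-tagged proteins, and its subunit transcripts are described here in the interscapular brown adipose tissue (iBAT) of mice. The members were every protein-coding gene of the table whose symbol begins with Psm, a letter from a to g and a digit, plus Nfe2l1. This gave 51 genes of 55703 in the table, and 48 of them were among the 13507 genes with enough signal to test. The 3 catalytic subunits of the immunoproteasome, Psmb8, Psmb9 and Psmb10, were counted among the members and were also kept apart.

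Total RNA was sequenced from iBAT of C57BL/6 mice aged 8 weeks. There were 3 libraries labelled Wtap-BKO, from mice in which both Wtap alleles carry loxP sites around exon 4 and Cre is expressed from an insertion in the Ucp1 gene, and 3 libraries labelled Wtap flox/flox, from mice with the same floxed alleles and no Cre. WTAP anchors the METTL3 methyltransferase complex, which places m6A marks on RNA. Deletion is limited to cells that express Ucp1, so other cells of the pad keep Wtap, and the Cre allele itself is present in the Wtap-BKO mice alone. The study calls the libraries biological replicates. In bulk tissue, fewer cells of a type and less RNA per cell cannot be told apart. The study asked elsewhere whether the proteasome degrades METTL3 in this tissue, and the comparison here addresses the transcript side, whether the levels of proteasome mRNAs differed between the genotypes.

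The 20S core is a barrel of stacked rings, in which alpha subunits form the outer gates and beta subunits the inner chamber that holds the catalytic sites. The 19S cap sits on its ends, recognises ubiquitin, unfolds the substrate with a ring of ATPases and feeds it into the core. NRF1, the product of Nfe2l1, is an endoplasmic reticulum protein that is cleaved and released to the nucleus when proteasome activity falls short, where it binds antioxidant response elements and raises proteasome gene transcription. In brown adipose tissue it is known for keeping proteasome capacity up during cold exposure.

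The recovered totals were 15979694 to 19005123 reads per library, a similar precision for all. Wtap itself was at 11.8, 12.3 and 12.7 FPKM in the libraries labelled Wtap-BKO against 8.00, 8.63 and 8.16 FPKM in Wtap flox/flox (adjusted p = 0.0160 by limma, the test used for all genes here). The whole-gene value goes against a loss of Wtap transcript and does not check the deletion of exon 4. Ucp1, the uncoupling protein that marks brown adipocytes, was at 293, 495.1 and 286.7 FPKM in Wtap-BKO against 1651, 2072 and 1586 FPKM in Wtap flox/flox, and no marker of the 9 cell type lists was at 0 in all libraries. Skeletal muscle markers summed to 1196 FPKM in Wtap-BKO library 3 and 723.8 FPKM in Wtap flox/flox library 2, against at most 15.0 FPKM in any other library. Markers of brown adipocytes summed to 3998, 4086 and 2941 FPKM in Wtap-BKO against 6325, 7692 and 5684 FPKM in Wtap flox/flox. The list did not move one way. Of its 8 markers, limma called 1 lower (Ucp1) and 0 higher, against 3.88% and 6.10% of all genes tested. At an unadjusted p under 0.05 by limma, 5 were lower and 2 higher, against 13.2% and 15.7% of all genes tested. The 2 higher ones were Prdm16 and Elovl3 (log2 differences 0.49 and 3.27, Wtap-BKO minus Wtap flox/flox). Mitochondrially encoded genes took 11.0% to 12.2% of the reads in Wtap-BKO against 18.3% to 22.4% in Wtap flox/flox. The part of these shifts in the levels of proteasome transcripts was not tested. Scaling by library size alone moved the median log2 difference of all genes by 0.082. Leaving the mitochondrially encoded genes out of the scaling factors moved it by -0.0010. Those factors are medians over genes, which a few genes hardly move whatever their reads, so this last value does not address the shift. Without both libraries that hold muscle transcripts, only 2 libraries per genotype were left. Limma then called 0 genes either way in the whole table, with 1305 higher and 948 lower at an unadjusted p under 0.05.

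Among the 48 tested members, 1 was higher in Wtap-BKO iBAT at an adjusted p under 0.05 and 0 were lower. That is 2.08% of the members higher, against 6.10% of all genes tested called higher and 3.88% called lower. The member that passed was Psmd7, a scaffold subunit of the 19S cap. At an unadjusted p under 0.05, 4 members were higher and 4 lower, or 8.33% each way, against 15.7% and 13.2% of all genes tested. The voom alternative on recovered reads gave the same 1 and 0 calls, also with 4 and 4 at an unadjusted p under 0.05. The balance did not hold in every setting. With library size alone, 5 members were higher and 0 lower at an unadjusted p under 0.05 by limma (2605 and 1071 of all genes tested). Without both libraries that hold muscle transcripts, 3 were higher and 0 lower (1305 and 948 of all genes tested). Apart from those of voom, all these calls come from limma on log2(FPKM + 0.1), two-sided, with Benjamini-Hochberg adjustment over all genes tested. FPKM are fragments scaled by gene length and by a size of each library, which here followed median-of-ratios factors and not the total of reads.

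The members as a set were centred near no difference, with 22 positive and 26 negative log2 differences (Wtap-BKO minus Wtap flox/flox) and a median of -0.05. The median over all genes tested was -0.0038. The median absolute log2 difference was 0.14 for the members and 0.26 for all genes tested, or 0.23 for the 6681 genes averaging 5 FPKM or more. The 95% interval of the difference lay inside 1.5-fold in either direction for 37 of the 48 members, or 77.1%, against 36.7% of all genes tested and 51.1% of these better expressed genes. For 46 of the 48 it lay inside 2-fold, the 2 others being Psmd10 and Psmc3ip. The 11 members whose interval left the 1.5-fold bound were Psmd7, Psma4, Psmb8, Psmb9, Psme1, Psmd5, Psmd10, Psmg1, Psmg3, Psmg4 and Psmc3ip.

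**Figure D1:**
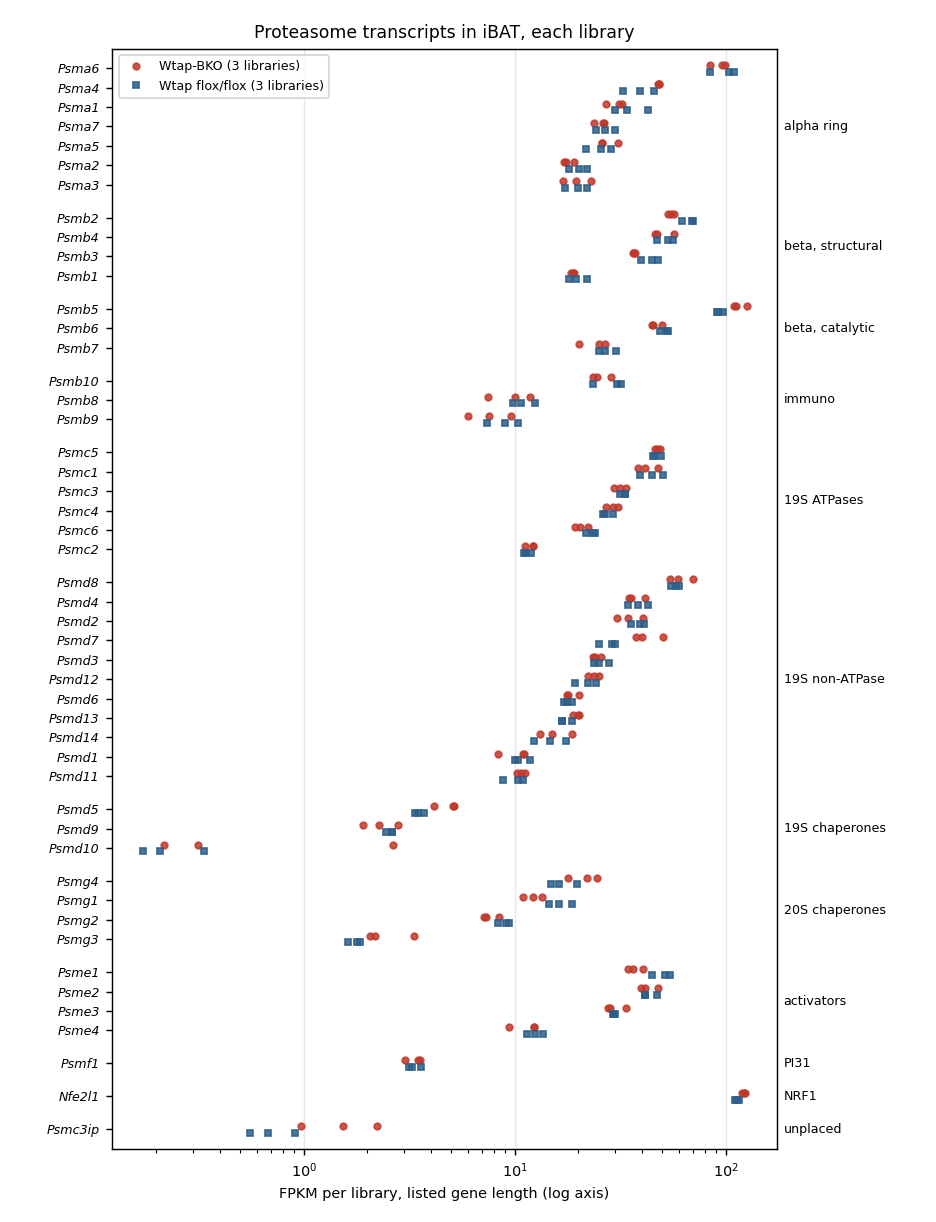
FPKM of each of the 48 tested members in each library on a log axis, with Wtap-BKO libraries as circles above and Wtap flox/flox libraries as squares below for each gene, grouped by role. For 12 members the symbols of the groups do not overlap, 8 with Wtap-BKO above and 4 with Wtap-BKO below.

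Groups that did not overlap were no more frequent than in the table as a whole. Every Wtap-BKO library lay above every Wtap flox/flox library for 8 members (16.7%, against 18.2% of all genes tested), and below for 4 (8.33%, against 16.9%). The 8 were Psmd7, Psmb5, Psma4, Psmd13, Psmd5, Psmg3, Nfe2l1 and Psmc3ip. The 4 were Psmb2, Psmb3, Psme1 and Psmg1.

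Psmd7 (ENSMUSG00000039067) encodes Rpn8, the inactive partner that pairs with the deubiquitinase Psmd14 in the lid of the 19S cap. The gene lies on the minus strand of chromosome 8, positions 107580381 to 107588464 of GRCm38.p6, its principal transcript has 7 exons, and no annotated gene overlaps it. Its level was 37.6, 50.2 and 40.2 FPKM in Wtap-BKO libraries 1 to 3, against 29.8, 28.8 and 25.2 FPKM in Wtap flox/flox libraries 1 to 3. The groups were fully separated, and Wtap-BKO library 2 was the highest. The means were 42.7 ± 6.63 FPKM in Wtap-BKO and 27.9 ± 2.41 FPKM in Wtap flox/flox (SD, n = 3 each), a log2 difference of 0.60 ± 0.14 (SE), with a 95% interval of 1.22-fold to 1.90-fold and limma adjusted p = 0.0376. The call was held in 9 of 17 alternative settings, with adjusted p between 0.0129 and 0.223, while the log2 difference stayed between 0.48 and 0.69. Leaving out any library other than Wtap-BKO library 1 ended it, with adjusted p of 0.0667 to 0.109, as did leaving out both libraries with muscle transcripts (log2 difference 0.66, adjusted p = 0.223).

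The other subunits of the 19S cap differed by little. All 6 ATPases, Psmc1 to Psmc6, which form the unfolding ring, had intervals inside 1.5-fold, 3 with positive and 3 with negative differences, and a median log2 difference of -0.01. The ATPase with the smallest p was Psmc6, at 19.3, 22.4 and 20.4 FPKM in Wtap-BKO against 24.1, 23.4 and 21.8 FPKM in Wtap flox/flox (log2 difference -0.16, limma adjusted p = 0.330). Its groups overlapped, at Wtap-BKO library 2 and Wtap flox/flox library 3. Of the 11 non-ATPase subunits, 7 had positive and 4 negative differences, with a median log2 difference of 0.07, and 10 had intervals inside 1.5-fold.

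Psmd14, the deubiquitinase that forms a heterodimer with the Psmd7 product, gave 13.1, 18.6 and 15.0 FPKM in Wtap-BKO against 17.5, 14.7 and 12.3 FPKM in Wtap flox/flox. The groups overlapped widely, and the log2 difference was 0.07 (limma adjusted p = 0.836). Psmd13, another lid subunit, was at 20.1, 18.9 and 19.9 FPKM in Wtap-BKO against 18.6, 16.7 and 16.8 FPKM in Wtap flox/flox. These groups did not overlap, but by a margin smaller than the spread within either, and the difference of 0.18 did not pass (limma adjusted p = 0.254). The ubiquitin receptor Psmd4 and the large base subunits Psmd1 and Psmd2 had small negative log2 differences of -0.05, -0.09 and -0.13, none past the test.

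**Figure D2:**
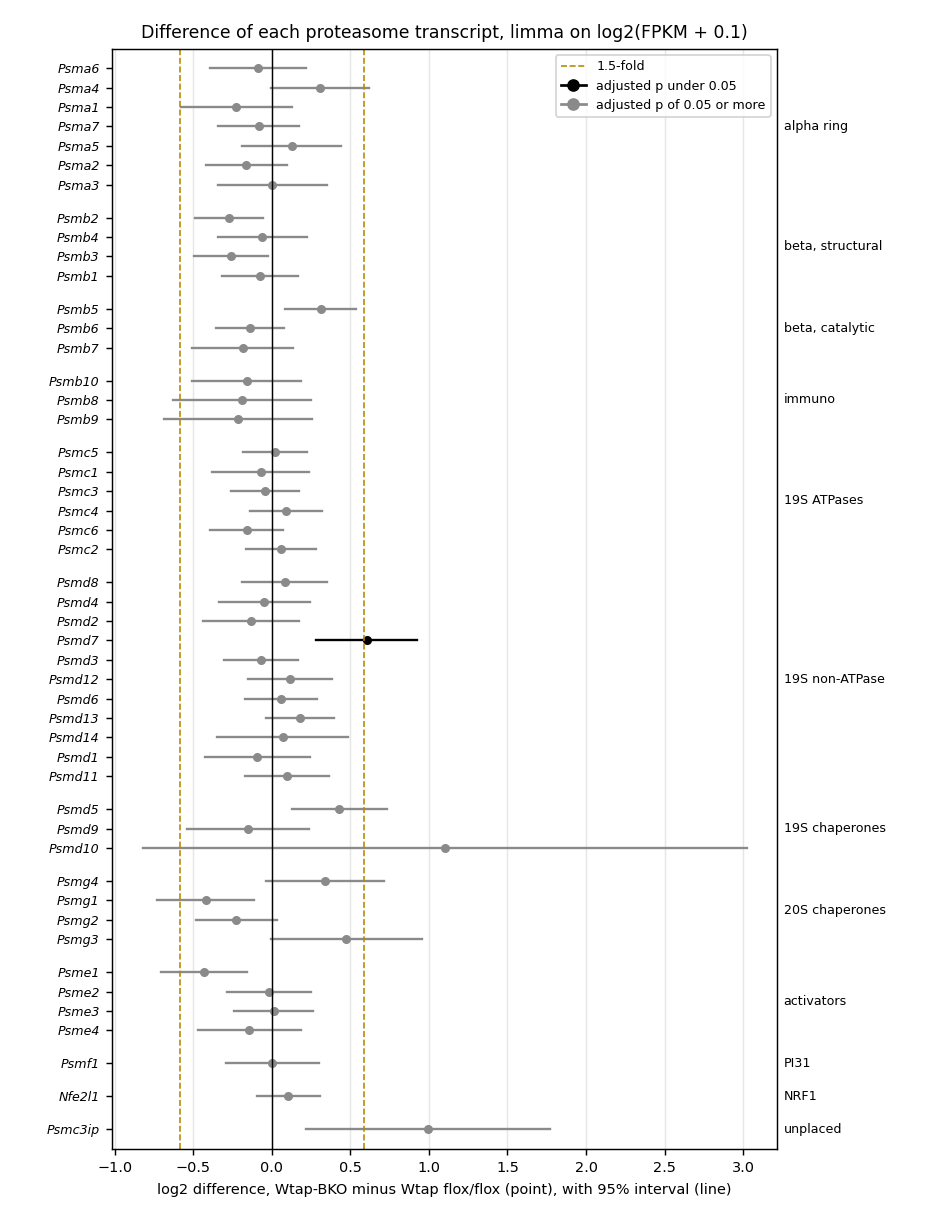
Log2 difference, Wtap-BKO minus Wtap flox/flox, of each tested member (points) with its 95% interval (lines), grouped by role, with dashed lines at 1.5-fold. Psmd7, in black, is the member past an adjusted p of 0.05, and 37 of the 48 intervals lie between the dashed lines.

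In the 20S core, the summed level of the 14 constitutive subunits was 591.3, 633 and 600.9 FPKM in Wtap-BKO against 674.8, 626.4 and 559.9 FPKM in Wtap flox/flox. The groups overlapped, with means of 608.4 ± 21.8 and 620.4 ± 57.7 FPKM (SD, n = 3 each), Wtap-BKO first. The 17 subunits of the 19S cap summed to 467.3, 513.4 and 466.4 FPKM in Wtap-BKO against 499.9, 463.3 and 437.6 FPKM in Wtap flox/flox, again overlapping. Within each genotype the subunits leaned towards the same libraries. Of the 31 constitutive subunits of the core and cap, Wtap-BKO library 2 held the highest value of its group for 22, and Wtap-BKO library 1 the lowest for 17. Wtap flox/flox library 1 held the highest value of its group for 28, and library 3 the lowest for 25. The subunits of a library share its scaling, so these counts describe the libraries and are no independent measurements.

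The alpha ring had 7 tested subunits, 3 with positive and 4 with negative differences, and a median log2 difference of -0.08. Psma4 had the smallest p of the ring, at 47.8, 48.0 and 48.0 FPKM in Wtap-BKO against 45.5, 39.2 and 32.5 FPKM in Wtap flox/flox. Its Wtap-BKO libraries were nearly equal and above all Wtap flox/flox libraries, which scattered, and the log2 difference of 0.31 did not pass (limma adjusted p = 0.179). The eighth alpha gene, Psma8, a testis form known from spermatocytes, had 9 reads over the 6 libraries and was not tested.

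All 4 structural beta subunits, which line the inner chamber without catalytic sites, had negative differences, with a median log2 difference of -0.17 and none past the test. Psmb2 was at 57.1, 55.1 and 53.4 FPKM in Wtap-BKO against 69.8, 68.8 and 61.9 FPKM in Wtap flox/flox (log2 difference -0.27, limma adjusted p = 0.104). Psmb3 was at 36.7, 37.1 and 36.3 FPKM in Wtap-BKO against 47.8, 44.7 and 39.7 FPKM in Wtap flox/flox (log2 difference -0.26, limma adjusted p = 0.141). In both, every Wtap-BKO library lay below every Wtap flox/flox library, whereas the groups overlapped for Psmb1 and Psmb4, with log2 differences of -0.07 and -0.06. Over the alternative settings the signs of Psmb1 and Psmb4 turned, with log2 differences up to 0.011 and 0.024.

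The 3 constitutive catalytic subunits did not lean one way. Psmb5, which carries the chymotrypsin-like site, was at 108.9, 125.5 and 111.8 FPKM in Wtap-BKO against 96.7, 90.6 and 91.4 FPKM in Wtap flox/flox. All Wtap-BKO libraries were the higher ones, with a log2 difference of 0.31 and a 95% interval of 1.06-fold to 1.45-fold, short of the threshold after adjustment (limma adjusted p = 0.0878). Psmb6, the caspase-like subunit, was at 49.98, 45.3 and 44.8 FPKM in Wtap-BKO against 52.4, 53.1 and 48.8 FPKM in Wtap flox/flox (log2 difference -0.14, limma adjusted p = 0.363). Psmb7, the trypsin-like subunit, was at 20.2, 26.8 and 25.2 FPKM in Wtap-BKO against 30.1, 26.8 and 24.9 FPKM in Wtap flox/flox (log2 difference -0.19, limma adjusted p = 0.413). The groups overlapped for Psmb6 and Psmb7.

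Because Psmb5 and Psmb6 hold letters of the core antioxidant response element that NRF1 binds, TGACNNNGC, in the window from 250 bases before to 50 bases after their start site, while their log2 differences had opposite signs, both windows are shown. They are RefSeq sequences of GRCm38.p6, read 5′ to 3′ along the gene, with the match in capitals. The Psmb5 window is chr14:54617946-54618245 on the minus strand, and its match TGACGTCGC begins at position -47 from the start site. The Psmb6 window is chr11:70525107-70525406 on the plus strand, and its match TGACGGAGC begins at position -9.
Psmb5: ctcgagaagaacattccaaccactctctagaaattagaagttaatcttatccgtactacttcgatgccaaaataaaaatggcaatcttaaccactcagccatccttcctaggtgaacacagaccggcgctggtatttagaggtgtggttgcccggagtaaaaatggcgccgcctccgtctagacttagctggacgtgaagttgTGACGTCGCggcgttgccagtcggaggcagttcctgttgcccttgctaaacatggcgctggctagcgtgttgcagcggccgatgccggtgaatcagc
Psmb6: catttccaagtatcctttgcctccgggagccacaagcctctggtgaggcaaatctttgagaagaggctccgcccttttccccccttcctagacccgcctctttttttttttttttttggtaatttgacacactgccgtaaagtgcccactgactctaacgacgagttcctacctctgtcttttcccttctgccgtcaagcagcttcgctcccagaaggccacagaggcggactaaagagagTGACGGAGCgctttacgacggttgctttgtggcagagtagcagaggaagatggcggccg
The match was found in 6 of the 43 members with a window, or 14%, searched on both strands, and in 14% of the 27025 genes with a window in that set. The other 4 were Psmc6, Psmd9, Psmd12 and Psme4, none called. The CCAAT box, searched on both strands as CCAAT, was in 16 of the 43 members (37.2%) and in 41.1% of all genes. Neither window printed above holds CCAAT, and a match in letters does not show a bound site.

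The immunoproteasome forms when interferon induces Psmb8, Psmb9 and Psmb10, which replace Psmb5, Psmb6 and Psmb7 and shift the peptides cut for presentation on MHC class I. All 3 had negative log2 differences, none past the test and all with overlapping groups. Psmb8 was at 11.8, 10 and 7.44 FPKM in Wtap-BKO against 10.7, 9.82 and 12.5 FPKM in Wtap flox/flox (log2 difference -0.19, limma adjusted p = 0.539). Psmb9 was at 9.61, 7.53 and 6.04 FPKM in Wtap-BKO against 10.4, 7.41 and 8.98 FPKM in Wtap flox/flox (log2 difference -0.22, limma adjusted p = 0.515). Psmb10 was at 28.4, 23.4 and 24.6 FPKM in Wtap-BKO against 30.6, 23.4 and 32.0 FPKM in Wtap flox/flox (log2 difference -0.16, limma adjusted p = 0.513). Wtap-BKO library 1 held the highest Wtap-BKO value for all 3. Psmb9 overlaps Tap1 on the other strand, and Psmb8 and Psmb10 each overlap an antisense gene there, and since the sources used here do not say whether the counting used strand, reads of the overlapping genes cannot be told apart.

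Set against its constitutive counterpart within each library, the Psmb8 to Psmb5 ratio of FPKM was 0.108, 0.0797 and 0.0665 in Wtap-BKO against 0.110, 0.108 and 0.137 in Wtap flox/flox. The highest Wtap-BKO ratio nearly met the lowest Wtap flox/flox ratio. The mean log2 ratio differed by -0.50, with a two-sided exact permutation p of 0.1, which is the smallest p that 3 libraries against 3 allow, or 0.3 after adjustment over the 3 pairs. For Psmb9 to Psmb6 the log2 ratio differed by -0.08 (exact permutation p = 0.7), and for Psmb10 to Psmb7 by 0.03 (exact permutation p = 1). Expressed on the same listed length scale, the immunoproteasome subunits summed to 43.0 ± 6.12 FPKM in Wtap-BKO and 48.6 ± 6.93 FPKM in Wtap flox/flox, and the 3 constitutive catalytic subunits to 186.2 ± 9.99 FPKM in Wtap-BKO and 171.6 ± 7.17 FPKM in Wtap flox/flox (SD, n = 3 each).

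**Figure D3:**
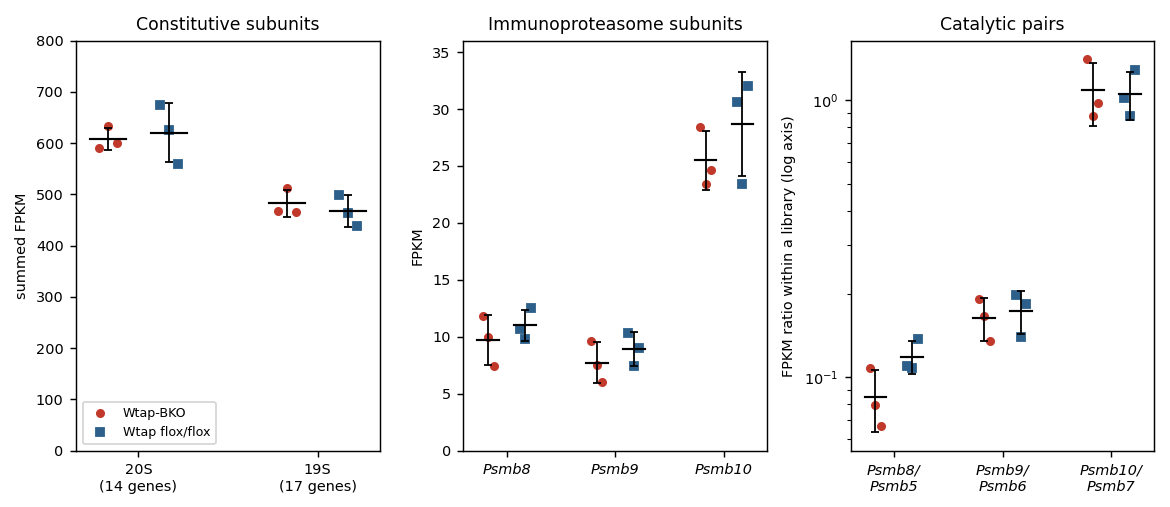
Left, summed FPKM of the constitutive 20S and 19S subunits; middle, FPKM of the immunoproteasome subunits; right, FPKM ratio of each immunoproteasome subunit to its constitutive counterpart on a log axis. Points are libraries, Wtap-BKO left of Wtap flox/flox in each pair, with bars for the mean and SD (n = 3); the Psmb8 to Psmb5 ratios lie lower in Wtap-BKO, where the highest is 0.108, while the lowest in Wtap flox/flox is also 0.108.

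Immune cells express the immunoproteasome strongly, and their marker lists were set beside these values. The 10 macrophage markers summed to 343, 229.1 and 299.9 FPKM in Wtap-BKO against 150.7, 168.1 and 225.3 FPKM in Wtap flox/flox, with 3 of 9 tested called higher (against 6.10% of all genes tested). At an unadjusted p under 0.05 by limma, 7 of the 9 were higher (against 15.7% of all genes tested) and 0 lower. T cell markers summed to 5.22, 6.24 and 1.46 FPKM in Wtap-BKO against 3.79, 2.79 and 5.56 FPKM in Wtap flox/flox, with 0 of 3 tested called by limma or voom and 0 at an unadjusted p under 0.05. B cell markers summed to 2.98, 2.08 and 1.70 FPKM in Wtap-BKO against 4.12, 3.46 and 3.46 FPKM in Wtap flox/flox, with 1 of 2 tested, Cd79a, called lower (log2 difference -0.97, limma adjusted p = 0.0332; not called by voom). Dendritic cell markers summed to 2.70, 1.96 and 2.035 FPKM in Wtap-BKO against 1.57, 1.32 and 2.06 FPKM in Wtap flox/flox. Of the 2 dendritic cell markers tested, 0 were called by limma or voom. The part of any of these in the levels of Psmb8, Psmb9 and Psmb10 was not tested. Among 11 tested genes of class I presentation and its interferon regulators, 0 were called by limma or voom, 4 were higher at an unadjusted p under 0.05 by either (against 15.7% of all genes tested by limma), and Psmb9's neighbour Tap1 had a log2 difference of -0.06. The class I heavy chain H2-K1 was at 345.4, 466.0 and 368.4 FPKM in Wtap-BKO against 287.2, 255.5 and 284.4 FPKM in Wtap flox/flox (log2 difference 0.50, limma adjusted p = 0.0678). Its groups did not overlap, unlike those of the immunoproteasome subunits.

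The activators dock on the core in place of the cap. Psme1, the interferon-inducible alpha subunit of PA28, was at 40.5, 34.3 and 36.3 FPKM in Wtap-BKO against 54.4, 51.3 and 44.4 FPKM in Wtap flox/flox. Every Wtap-BKO library was below every Wtap flox/flox library, and the log2 difference of -0.43 had a limma adjusted p of 0.0604. It passed under TMM factors, at an adjusted p of 0.0492. Psme1 overlaps Emc9 on the other strand. Its partner Psme2, the beta subunit of PA28, was at 39.5, 47.8 and 41.2 FPKM in Wtap-BKO against 47.4, 41.2 and 41.3 FPKM in Wtap flox/flox (log2 difference -0.02, limma adjusted p = 0.942), with overlapping groups. Psme3, the nuclear PA28 gamma, and Psme4, which encodes PA200, had log2 differences of 0.01 and -0.14. Psme2b, a copy of Psme2, had 1 read in all and was not tested, and reads that both copies match could be split between them. The inhibitor PI31, encoded by Psmf1, was at 3.48, 3.01 and 3.57 FPKM in Wtap-BKO against 3.598, 3.27 and 3.16 FPKM in Wtap flox/flox, with a log2 difference of 0.00 (limma adjusted p = 0.990).

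The assembly chaperones, which help the rings and the cap form and leave before the particle works, included 3 members for the cap and 4 for the core, none past the test. Psmd5, a chaperone of the cap base, was at 4.12, 5.12 and 5.14 FPKM in Wtap-BKO against 3.48, 3.70 and 3.37 FPKM in Wtap flox/flox. All Wtap-BKO libraries were higher, with a log2 difference of 0.43 (limma adjusted p = 0.0802). It was called in 2 of the 17 alternative settings, with library size alone (adjusted p = 0.0396) and without Wtap-BKO library 1 (adjusted p = 0.0476). Psmd5 overlaps Cutal on the other strand. Psmg1, a chaperone of alpha ring assembly, went the other way, at 13.4, 12.2 and 11.0 FPKM in Wtap-BKO against 16.2, 18.7 and 14.5 FPKM in Wtap flox/flox (log2 difference -0.42, limma adjusted p = 0.0873), with no overlap. Psmg3 and Psmg4, which act as a pair early in alpha ring assembly, had log2 differences of 0.47 and 0.34, and Psmg2, the partner of Psmg1, -0.23, none past the test.

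Psmd10, known as gankyrin, another chaperone of the cap base, was at 2.65, 0.315 and 0.218 FPKM in Wtap-BKO against 0.338, 0.209 and 0.172 FPKM in Wtap flox/flox. Of its 106 reads, 74 were in Wtap-BKO library 1, and the gene entered the test only through that library. The log2 difference of 1.10 had a 95% interval from -0.82 to 3.02. The meiotic recombination factor Psmc3ip matched the rule by its symbol alone and has no place in the particle. It was at 1.53, 2.23 and 0.969 FPKM in Wtap-BKO against 0.911, 0.675 and 0.557 FPKM in Wtap flox/flox (log2 difference 0.99, limma adjusted p = 0.101). The thymus subunit Psmb11 had 6 reads in all and was not tested.

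Nfe2l1 itself was the member with the highest mean on the listed length scale, at 118.7, 123.9 and 121.6 FPKM in Wtap-BKO against 110.2, 116.0 and 112.6 FPKM in Wtap flox/flox. The groups did not overlap, but the log2 difference was 0.10 ± 0.08 (SE), with a 95% interval of 0.936-fold to 1.23-fold and limma adjusted p = 0.457. NRF1 is controlled largely after translation, and its protein was not measured in these libraries.

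Of 56 further genes of the proteasome network, listed with earlier results of these data known, 52 were tested, 1 was called higher and 1 lower. Over all genes tested, 6.10% were called higher and 3.88% lower, so calls were no more frequent in the network. Ogt, the enzyme that adds O-GlcNAc to proteins and is known to modify NRF1, was at 29.0, 22.1 and 24.5 FPKM in Wtap-BKO against 35.8, 36.5 and 40.1 FPKM in Wtap flox/flox (log2 difference -0.58, limma adjusted p = 0.0328). Keap1, the adaptor that targets the related factor NRF2 for degradation, was at 16.7, 20.9 and 17.4 FPKM in Wtap-BKO against 13.0, 13.3 and 13.2 FPKM in Wtap flox/flox (log2 difference 0.47, limma adjusted p = 0.0443). In both the groups were fully apart, and Wtap-BKO library 2 was the farthest from the Wtap flox/flox libraries. Both calls were lost when any library other than Wtap-BKO library 1 was left out, with adjusted p between 0.0707 and 0.103 for Ogt and between 0.0824 and 0.132 for Keap1, and when both libraries with muscle transcripts were left out (0.245 for Ogt and 0.254 for Keap1). The Ogt call was also lost with library size alone (adjusted p = 0.114).

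Of the 10 genes listed for NRF1 processing and turnover, Ogt included, 3 had positive and 7 negative log2 differences, with a median of -0.07. The log2 difference was 0.01 for Ddi2, the protease that cleaves it, -0.09 for Ngly1, which removes its glycans, and -0.02 for Vcp, the ATPase that extracts it from the membrane, with limma adjusted p of 0.969, 0.681 and 0.930. Sel1l, part of the ubiquitin ligase complex of the endoplasmic reticulum, had a log2 difference of 0.45 (limma adjusted p = 0.0624), and Ufd1, a cofactor of Vcp, of -0.25 (limma adjusted p = 0.139), both with groups that did not overlap. Nfe2l2, which encodes NRF2, had a log2 difference of -0.02 (adjusted p = 0.956). Pomp, the maturation factor of the core, and Adrm1, a ubiquitin receptor of the cap whose symbol falls outside the rule, had log2 differences of 0.01 and 0.15 (adjusted p of 0.982 and 0.431). The polyubiquitin gene Ubb had a log2 difference of 0.03 (adjusted p = 0.935).

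Proteasome subunits are built into the particle in equal numbers, but their FPKM were unequal, and the order depended on the length used. On the listed length, the union of all annotated exons, the 14 constitutive core subunits ranged between 17.9 FPKM (Psma2) and 115.4 FPKM (Psmb5) in Wtap-BKO, and between 19.7 FPKM (Psma3) and 99.2 FPKM (Psma6) in Wtap flox/flox. The listed length was up to 3.36 times that of the principal transcript among the members. Per principal transcript length, the range was 22.5 (Psma2) to 115.4 FPKM (Psmb5) in Wtap-BKO and 25.3 (Psma2) to 132.3 FPKM (Psmb3) in Wtap flox/flox. The coefficient of variation over the 14 core subunits was 43.0% per principal transcript against 66.4% on the listed length in Wtap-BKO, and 43.8% against 58.9% in Wtap flox/flox. For the 17 cap subunits it was 50.9% on both scales in Wtap-BKO. The ratio of a gene between genotypes does not depend on the length.

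**Figure D4:**
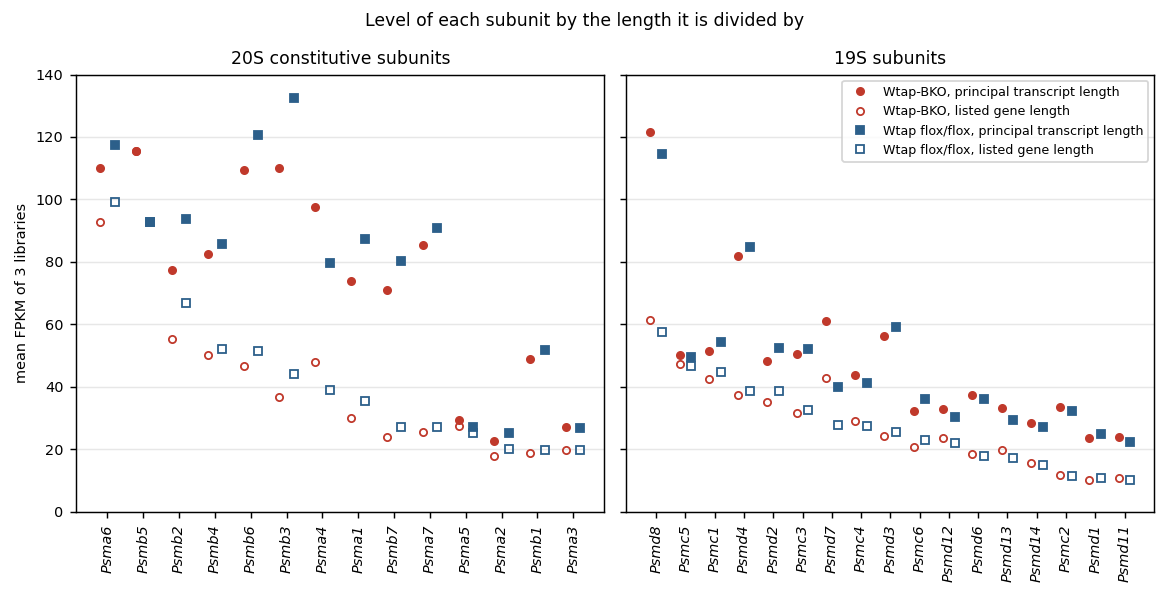
Mean FPKM of 3 libraries for each constitutive 20S subunit (left) and 19S subunit (right), per principal transcript length (filled) and on the listed gene length (open), with Wtap-BKO as circles left of Wtap flox/flox as squares. Psmb3 and Psmb6 lie far lower on the listed length than per principal transcript, whereas Psmb5 has the same value on both.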

How the data were processed

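RNA-seq libraries of iBAT (n = 3 Wtap-BKO, n = 3 Wtap flox/flox) were grouped by their labels. Per the labels and the methods, the authors aligned reads with HISAT2 2.0.5 to GRCm38.p6, counted them with featureCounts 1.5.0-p3 and compared groups with DESeq2 1.16.1; the sources used here do not say whether counting used strand. The values in the deposited table are FPKM, which the authors had already scaled between libraries (library sizes behind the FPKM were proportional to median-of-ratios factors). Each FPKM times gene length was a whole multiple of what 1 read is worth in its library (100% of nonzero values within 0.01), so reads were recovered by division, 15979694 to 19005123 per library.

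Genes averaging 0.5 FPKM or more and at least 10 recovered reads (13507 of 55703) were tested with limma 3.58.1 in R 4.3.3 on log2(FPKM + 0.1), which understates changes of low genes, with a variance trend, group as the only term and Benjamini-Hochberg adjustment over all genes. The call threshold was an adjusted p of 0.05. Ratios of catalytic pairs were compared by an exact permutation test. The test was checked on simulated data.

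Members and gene lists were chosen with earlier results of these data known. Values per library are given for Nfe2l1, the catalytic subunits, each called member and the member with the smallest p of each role. A network gene of the rule is not reported here. By this rule Psmd14, Psmd13, Psmb3, Psme2, Psmd10, H2-K1, Cd79a, Sel1l and Ufd1 were not required, and they were added after their values were seen. All 51 members matched the GENCODE M21 annotation in span and length; 19 overlap a gene on the other strand and 10 one on their own. Besides those named above, Psmd13 overlaps Sirt3, Psma4 overlaps AY074887 and Psmb7 overlaps Nek6 on the other strand. Psmg3 overlaps Gm26938 on its own strand. The 4 pseudogenes whose symbols match the rule are not protein coding and were left out. Alternatives were 17 settings of pseudocount, filter, scaling, variance model, gene set, libraries left out and replicate block. Replicate numbers are shared by the groups, but same-numbered libraries did not deviate together (correlations of -0.05, -0.40 and -0.27 across genes), so they were not taken as pairs. Promoter windows were matched by symbol to RefSeq for 43 of 51 members.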

Additional observations from a re-analysis of the deposited data

How the results depend on the processing

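Over 17 alternatives, the median log2 difference of all genes moved by 0.082 with library size alone and by at most 0.0067 in size with other scalings. Genes called higher over the table numbered 824, against 442 with no filter, 0 without both libraries that hold muscle transcripts (2 libraries left per genotype, and by limma 1305 at an unadjusted p under 0.05), 211 with the replicate block and 219 to 849 when 1 library was left out. Genes called lower numbered 524, against 245 with no filter, 310 with library size alone, 0 without both muscle libraries (948 unadjusted), 97 with the replicate block and 88 to 428 when 1 library was left out. Proteasome members called higher numbered 1, against 3 with library size alone (Psmb5, Psmd5 and Psmd7), 0 with no filter, without both muscle libraries or with the replicate block (Psmd7 adjusted p = 0.0728, 0.223 and 0.0848; 5, 3 and 4 members higher at an unadjusted p under 0.05) and 0 to 2 when 1 library was left out; members called lower numbered 0, against 1 with TMM factors. Network genes called higher numbered 1, against 4 with library size alone, 0 with no filter, without both muscle libraries or with the replicate block (limma, 8, 2 and 5 unadjusted), and 0 to 3 when 1 library was left out; those called lower numbered 1, against 0 under these 3 settings (7, 3 and 4 unadjusted), 0 with library size alone (4 unadjusted) and 0 to 1 when 1 library was left out.

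Among the genes that the rule named, the sign turned near zero for Psmf1 (-0.0034 with TMM factors, -0.057 without both muscle libraries, -0.043 to 0.077), Pomp (-0.00091 with TMM factors, -0.11 to 0.093), Vcp (0.068 with library size alone, -0.073 to 0.036), Nfe2l2 (0.068 with library size alone, -0.11 to 0.089), Ddi2 (-0.089 to 0.12), Ngly1 (-0.17 to 0.019) and Ubb (-0.18 to 0.19), the ranges being log2 differences with 1 library left out. Over the 17 settings the sign also turned for the members Psma3, Psmb1, Psmb4, Psmc1, Psmc3, Psmc5, Psmd1, Psmd3, Psmd4, Psmd8, Psmd14, Psme2 and Psme3. Counts of positive and negative differences among the members therefore depend on the setting. For the catalytic pairs, the log2 ratio difference turned for Psmb10 to Psmb7 (-0.042 without both muscle libraries, -0.18 to 0.17) and Psmb9 to Psmb6 (-0.23 to 0.055). The ratios do not depend on scaling or filters, and no paired test of them could pass, the smallest blocked p being 0.25. The 3 same-numbered pairs did not correlate positively (-0.05, -0.40 and -0.27), so a call lost under the block is no measure of a weaker effect. With 3 libraries per group, a median SE of 0.12 (log2) limits what could be seen in a member. The cause of these moves was not tested.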
